A study of Mus musculus with 6 samples.

Results

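The 10 genes described here are transcription factors and partners used by neural crest cells and by cells that pass from an epithelial to a mesenchymal state (EMT), together with the filament gene Vim. They were taken by name from a fixed list, which was chosen with earlier results of these data known. Every transcript assigned to them was summed, out of 52609 annotated genes in all. All 10 were among the 15448 genes with enough reads to be tested. Epithelial cells are held to their neighbours by E-cadherin and tight junctions, and EMT factors of the ZEB, SNAI and TWIST families bind short E-box sequences and repress those genes. The same factors act in the neural crest, a population that forms at the border of the neural plate, leaves the epithelium and migrates, and SOX9, SOX5 and ETS1 belong to the factor network of that population.

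The libraries came from mouse epiblast stem cells, primed pluripotent cells grown from dissected epiblast on inactivated mouse embryonic fibroblasts (feeder cells). Per the labels, all 6 cultures received FGF2 at 10 ng/mL, the Wnt secretion inhibitor IWP2 at 5 µM and SB431542 at 2 µM. SB431542 blocks type I receptors of Activin, Nodal and TGF-beta. In 3 libraries Activin A was present at 20 ng/mL, and in the other 3 it was left out. The series title poses the question of Activin A and the ectoderm lineage. The label of the growth factors of the library without Activin A replicate 1 still lists Activin A, while its title and genotype label do not, and the design text speaks of 2 lines, so a difference of line between the groups cannot be told apart from Activin A. No label says whether the libraries came from separate cultures, and p-values here measure only how far these samples scatter, which may be technical.

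Depth ran from 9946521 to 16350923 estimated reads a library, the lowest being with Activin A replicate 3. In edgeR's quasi-likelihood test over all 15448 genes, 29.2% were called at an adjusted p of 0.05, 14.0% higher and 15.2% lower without Activin A, so a call alone is common in these data. Of 14 epiblast stem cell markers 10 fell and 3 rose, and Pou5f1 averaged 374 CPM (read counts relative to TMM-scaled library size) with and 121 CPM without Activin A. Of the neural crest's defining markers, Sox10 had 1.57 ± 0.296 CPM with and 1.22 ± 0.292 CPM without Activin A (SD, n = 3 each), and Foxd3 had 3.18 ± 0.362 and 0.588 ± 0.0774 CPM. Other markers of the crest list stood higher, with Crabp1 at 53.7, Ngfr at 36.6 and Erbb3 at 35.5 CPM on average with Activin A.

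Without Activin A, 5 of the 10 genes rose, 1 fell and 4 did not pass the test. The genes that rose were Ets1, Sox5, Zeb2, Snai2 and Sox9, by 1.79 to 2.47-fold, and Vim fell by 0.24 on the log2 scale. Against the 14.0% of all tested genes called higher, and the 3.58% called higher by at least 1.5-fold, the 5 rises are 5 of 10. Because the genes were chosen with earlier results of these data known, such shares describe them and do not test them as a set. The median log2 fold of the 10 was 0.624, and that of all tested genes 0.0012. By at least 2-fold, 3 of the 10 were called higher (Ets1, Sox5 and Zeb2), against 1.59% of all tested genes. Libraries of the groups did not overlap for 6 of the 10, against 42.9% of all tested genes. For 5 of these the libraries without Activin A were higher, against 21.3% of all tested genes, and for Vim they were lower, against 21.6%. Sox5, at 8 to 15 reads with Activin A, passed the low-count filter through the libraries without it. Its place in each of these counts was thus favoured by the filter.

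**Figure D1:**
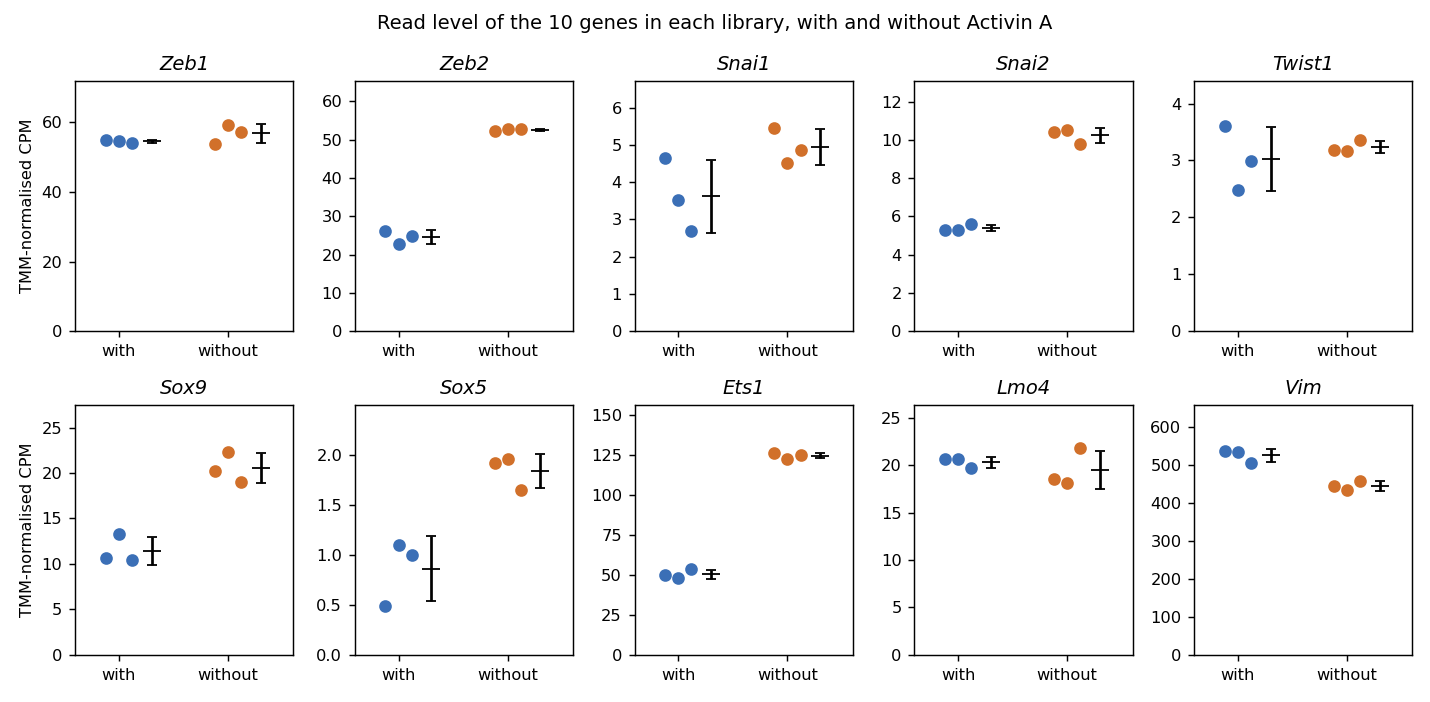
TMM-normalised CPM (y axis, from 0) of each gene in the 3 libraries with Activin A (blue points) and the 3 without (orange points, replicates 1 to 3 from left to right); the black mark and bar beside each group are its mean and SD. The groups are apart for Zeb2, Snai2, Sox9, Sox5, Ets1 and Vim and overlap for Zeb1, Snai1, Twist1 and Lmo4.

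The sequences shown first are exon joins at which 2 short transcripts of Ets1 and Zeb2 differ from the long ones. Values per transcript are given below, and no reads over the joins were counted. Each line gives the last 20 bases of 1 exon in capitals and the first 20 bases of the next in lower case, read 5′ to 3′ on the gene's strand from the GENCODE M21 transcripts, with exons numbered as in Ets1-201 and Zeb2-201.
Ets1-201, exon 1 to exon 2: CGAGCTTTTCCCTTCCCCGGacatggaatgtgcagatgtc
Ets1-201, exon 5 to exon 6: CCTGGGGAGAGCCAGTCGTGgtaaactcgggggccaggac
Ets1-205, exon 1 to exon 6: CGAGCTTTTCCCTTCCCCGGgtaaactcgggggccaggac
Zeb2-201, exon 4 to exon 5: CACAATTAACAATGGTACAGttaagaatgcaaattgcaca
Zeb2-227, exon 4 to exon 6: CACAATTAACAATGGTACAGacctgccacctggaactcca
Ets1-205 joins exon 1, which ends at base 32696465 of chromosome 9 (GRCm38, plus strand), to exon 6, which starts at 32738099, and so leaves out exons 2 to 5. Zeb2-227 joins exon 4, whose last base is 45017397 of chromosome 2 (minus strand), to exon 6 at 45001814 and leaves out exon 5. Among the annotated transcripts of the 10 genes, each of these joins occurs only in the transcript named.

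The ZEB proteins are zinc finger and homeodomain repressors of E-cadherin and other epithelial genes. Zeb2 (ENSMUSG00000026872.17) lies on chromosome 2 of GRCm38 at 44983632 to 45117395, minus strand, with 29 transcripts in the files. Its level with Activin A was 26.1, 22.7 and 24.9 CPM in replicates 1 to 3, and without it was 52.1, 52.8 and 52.7 CPM. Every library without Activin A was above every library with it, on 250 to 783 reads. The means were 24.6 ± 1.74 and 52.5 ± 0.333 CPM (SD, n = 3 each), a 2.13-fold rise with a log2 fold of 1.09 and a standard error of 0.07 (edgeR adjusted p = 1.50e-08).

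Zeb1 (ENSMUSG00000024238.15, chromosome 18, 5591860 to 5775467, plus strand) did not pass the test. Its level was 55.0, 54.5 and 54.2 CPM with Activin A and 53.8, 59.3 and 57.3 CPM without, and the groups overlapped. The log2 fold was 0.06 with a 95% interval of -0.07 to 0.18 (edgeR adjusted p = 0.507). An increase as large as that of Zeb2 lies outside this interval. The number of Zeb2 reads per Zeb1 read was 0.475, 0.416 and 0.461 with Activin A and 0.970, 0.890 and 0.921 without. The ratio was therefore higher in every library without Activin A, 2.06-fold on average, with an exact two-sided permutation p of 0.10, the smallest that 3 against 3 libraries can give.

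On the deposited TPM scale (transcript abundance corrected for transcript length and library size) the ZEB genes looked different, and the values per transcript show where. Summed TPM of Zeb1 was 17.4, 6.05 and 7.18 with Activin A and 19.9, 7.95 and 7.21 without, high in replicate 1 of each group. In those 2 libraries the transcript Zeb1-212, 161 bases long in the files with an effective length of 6.7 bases, held 11.1 and 13.0 TPM from 2.0 estimated reads each, and it was at 0 in the other 4. The full-length transcript Zeb1-201 (5805 bases) stayed at 5.47 to 6.50 TPM in all 6 libraries and held 91.3% or more of the Zeb1 reads.

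Summed TPM of Zeb2 was 6.63, 14.2 and 20.1 with Activin A and 30.0, 13.7 and 29.8 without, so the groups overlapped on this scale. The transcript Zeb2-227, of 240 bases with an effective length of 17.4, held 0 to 79.2% of that TPM on 0 to 8.5 reads. With the transcripts shorter than 300 bases left out, Zeb2 had 6.63, 4.33 and 4.19 TPM with Activin A and 8.62, 9.85 and 15.9 TPM without, and the groups no longer overlapped. Limma-trend on log2(TPM + 1) gave an adjusted p of 0.273 for Zeb2 with all transcripts and 0.0338 without the short ones, with log2 folds of 0.84 and 1.02. An offset for mean transcript length in edgeR gave a log2 fold of 0.87 and an adjusted p of 0.228. Over the 18 alternatives the adjusted p of Zeb2 ran from 4.83e-47 to 0.273.

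**Figure D2:**
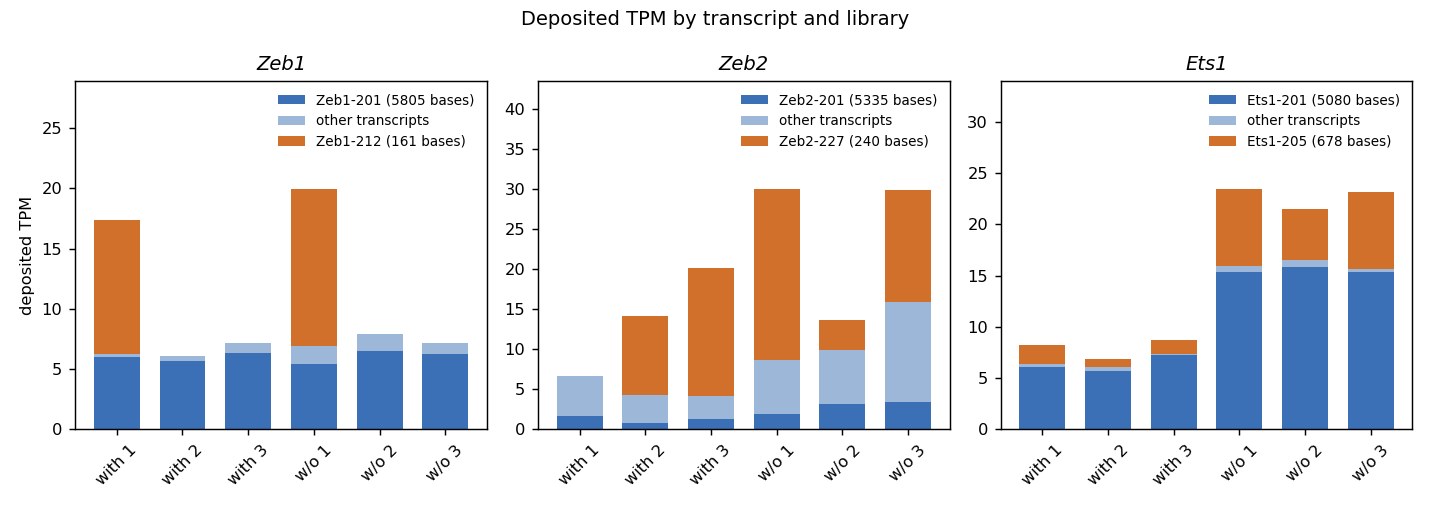
Deposited TPM (y axis, from 0) of Zeb1, Zeb2 and Ets1 in each library (with 1 to 3: with Activin A; w/o 1 to 3: without), stacked by transcript. The orange segments are short transcripts: Zeb1-212 is at 11.1 and 13.0 TPM in 2 libraries on 2.0 reads each, Zeb2-227 varies within each group, and Ets1-205 is higher in all 3 libraries without Activin A.

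Zeb2 shares its locus with Zeb2os, a gene annotated on the opposite strand, with 653 bases of exon in common. Zeb2os had 5 to 8 reads with Activin A and 26 to 30 without, a 3.78-fold rise (edgeR adjusted p = 0.000123). Zeb2 had 705 to 783 reads in the group without Activin A. The kit was a stranded one, a strand setting of the counting is not given in the sources used here, and the part of Zeb2os in the rise of Zeb2 was not tested. Of the 31-base words in Zeb2 transcripts, 3.26% occur in other genes, chiefly Zeb2os.

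Snai2 and Snai1 encode the zinc finger repressors SLUG and SNAIL. Snai2 (ENSMUSG00000022676.7, chromosome 16, 14705852 to 14709385, plus strand) had 5.32, 5.27 and 5.59 CPM with Activin A and 10.4, 10.5 and 9.79 CPM without. The groups were far apart relative to their spread, on 56 to 156 reads a library. The rise was 1.91-fold, with a log2 fold of 0.93 and a standard error of 0.11 (edgeR adjusted p = 1.94e-05), and the call held in all 18 alternatives with adjusted p-values up to 0.00647.

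Snai1 (ENSMUSG00000042821.7, chromosome 2, 167538195 to 167542814, plus strand) is a classic early target of TGF-beta signalling. Its level was 4.64, 3.51 and 2.69 CPM with Activin A and 5.46, 4.51 and 4.86 CPM without. With Activin A replicate 1 overlapped the other group, and the reads numbered 27 to 77. The log2 fold was 0.41 with a 95% interval of 0.01 to 0.80 before adjustment, and the edgeR adjusted p of Snai1 was 0.114, above the threshold. On leaving out with Activin A replicate 1 it was called (log2 fold 0.65, adjusted p = 0.0321), as it was after removal of a GC and length trend (0.48, adjusted p = 0.0247), out of 18 alternatives with adjusted p-values of 0.0247 to 0.534. The number of Snai2 reads per Snai1 read overlapped between the groups, at 1.14 to 2.07 with Activin A and 1.91 to 2.33 without (exact two-sided permutation p = 0.30).

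The E-box form that ZEB and SNAI proteins prefer is CAGGTG, or CACCTG on the other strand. In the RefSeq promoter windows of GRCm38.p6, which run from 250 bases before to 50 after a start site, 20.2% of 32851 windows hold it. Of the 10 genes 6 had a window there, 11 windows in all. Zeb1, Snai2, Sox9 and Ets1 had none and were not searched for any motif. Of the 11 windows 1, that of Snai1, held the E-box motif, 126 bases before the start. It is shown in capitals in the 60 bases at chr2:167538042-167538101, plus strand.
Snai1 promoter: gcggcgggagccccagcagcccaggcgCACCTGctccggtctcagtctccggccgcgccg
The SMAD motif GTCTAGAC, which reads alike on either strand, was in 0.213% of all windows and in none of the 11. The GC element GGCGCC, also alike on either strand, was in 11.9% of all windows and in 2 overlapping windows of Lmo4.

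Twist1 encodes a basic helix-loop-helix factor that acts in mesenchyme and in the crest of the head. Twist1 (ENSMUSG00000035799.6, chromosome 12, 33957671 to 33959829, plus strand) had 3.61, 2.49 and 2.99 CPM with Activin A and 3.19, 3.17 and 3.36 CPM without. All values lay in the same range, on 30 to 59 reads. The log2 fold was 0.08 with a 95% interval of -0.31 to 0.48 (edgeR adjusted p = 0.796), an interval that still allows a change of about the size measured for Snai1. The direction turned without the library with Activin A replicate 2, to -0.05.

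Sox9 encodes an HMG-box factor of the SOXE group that acts in the crest and in cartilage. Sox9 (ENSMUSG00000000567.5, chromosome 11, 112782224 to 112787760, plus strand) had 10.6, 13.2 and 10.5 CPM with Activin A and 20.3, 22.3 and 19.0 CPM without. The groups did not overlap, on 105 to 331 reads. The rise was 1.79-fold, with a log2 fold of 0.84 and a standard error of 0.10 (edgeR adjusted p = 2.60e-05), and it was called in all 18 alternatives with adjusted p-values up to 0.0141.

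Sox5 encodes a SOXD factor, which has no transactivation domain of its own and works beside SOX9 in cartilage. Sox5 (ENSMUSG00000041540.16, chromosome 6, 143828425 to 144781977, minus strand) was the lowest of the 10, with 8, 15 and 10 reads with Activin A and 27, 29 and 22 without. These were 0.489, 1.10 and 0.998 CPM against 1.91, 1.95 and 1.65 CPM, with no overlap. Sox5 was called higher, 2.20-fold with a log2 fold of 1.14 and a standard error of 0.31 (edgeR adjusted p = 0.0117). With Activin A replicate 1, at 8 reads, fell short of the low-count filter, which Sox5 passed through the libraries without Activin A. The call was thus favoured by the filter. The call is not firm: it was lost with DESeq2 (1.13, adjusted p = 0.0575), without the library with Activin A replicate 1 (0.80, adjusted p = 0.0781) or without Activin A replicate 2 (1.09, adjusted p = 0.0503), with the length offset (0.64, adjusted p = 0.415) and with limma-trend on TPM (0.17, adjusted p = 0.612). The transcripts with the largest shares of Sox5 TPM were Sox5-208 (351 bases, 36.5% over all libraries) and Sox5-213 (633 bases, 22.5%), on up to 1.0 and 2.7 estimated reads a library. No transcript of Sox5 held over 22.9 reads in any library, and 9.36% of its sequence words occur in other genes, chiefly the antisense gene Sox5os1.

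Ets1 encodes a winged helix factor of vascular, lymphoid and cranial crest cells. Ets1 (ENSMUSG00000032035.15, chromosome 9, 32636221 to 32757820, plus strand) had 49.9, 48.1 and 53.7 CPM with Activin A and 126, 123 and 125 CPM without. It had the largest fold of the 10 genes and, on 538 to 1822 reads, a spread of a few percent within each group. The means were 50.5 ± 2.86 and 125 ± 1.72 CPM (SD, n = 3 each), a 2.47-fold rise with a log2 fold of 1.31 and a standard error of 0.06 (edgeR adjusted p = 4.29e-10). Of all tested genes, 2.80% had a larger log2 fold in either direction, and Ets1 was called in all 18 alternatives with adjusted p-values up to 0.000542.

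The short transcript Ets1-205, whose join of exon 1 to exon 6 is printed above, had 1.87, 0.784 and 1.43 TPM with Activin A and 7.49, 4.99 and 7.47 TPM without. Its share of Ets1 TPM was 22.7%, 11.4% and 16.3% with Activin A and 23.2% to 32.3% without, so the shares did not overlap but came close. As shares of reads these were 1.18% to 2.63% and 2.69% to 4.13%, on 7.8 to 21.5 and 48.9 to 73.2 estimated reads. The long transcript Ets1-201 had 5.66 to 7.23 TPM with and 15.3 to 15.9 TPM without Activin A, so it too was higher in every library without Activin A. The files give no error for the split of reads between transcripts, and no test was made of the shares.

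Lmo4 encodes a LIM-only protein that joins other factors without binding DNA. Lmo4 (ENSMUSG00000028266.17, chromosome 3, 144188530 to 144205220, minus strand) had 20.6, 20.6 and 19.6 CPM with Activin A and 18.6, 18.1 and 21.8 CPM without. The groups overlapped. Its main transcript in TPM, Lmo4-203, had 5.12 to 7.63 TPM with and 3.82 to 5.42 TPM without Activin A, also with overlap. The log2 fold of the gene was -0.06 with a 95% interval of -0.25 to 0.12 (edgeR adjusted p = 0.630), and the gene passed in none of the 18 alternatives, with adjusted p-values of 0.286 to 0.955.

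Vim encodes vimentin, the intermediate filament of mesenchymal cells, which primed pluripotent cells also express. Vim (ENSMUSG00000026728.9, chromosome 2, 13573927 to 13582826, plus strand) had 537, 536 and 505 CPM with Activin A and 444, 435 and 460 CPM without. Every library without Activin A was lower. The fall was 1.18-fold, with a log2 fold of -0.24 and a standard error of 0.05 (edgeR adjusted p = 0.00182). Limma-trend on TPM gave an adjusted p of 0.0562 with all transcripts and 0.0362 without those under 300 bases, with a log2 fold of -0.21 each time.

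**Figure D3:**
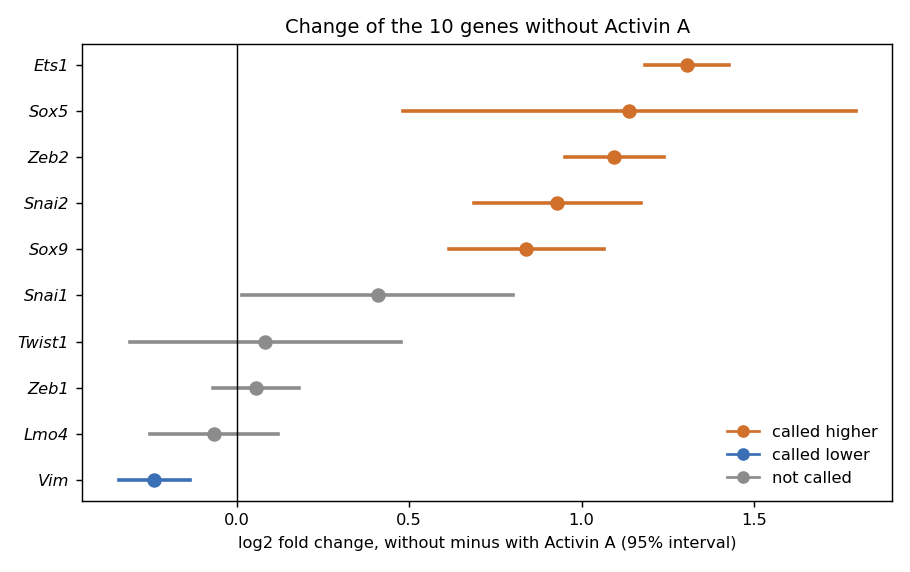
Log2 fold change (x axis, without minus with Activin A) of the 10 genes from edgeR, with 95% intervals before adjustment for the number of genes. Ets1, Sox5, Zeb2, Snai2 and Sox9 lie to the right of 0 (0.84 to 1.31), Sox5 with the widest interval, and Vim lies at -0.24.

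By level per length, on TPM without the transcripts under 300 bases, Vim stood far above the rest at 363 to 382 TPM with and 318 to 324 TPM without Activin A. With Activin A, Lmo4 (12.6 ± 0.739 TPM) came next, then Ets1 (7.96 ± 0.965), Zeb1 (6.51 ± 0.595) and Zeb2 (5.05 ± 1.37, SD, n = 3 each). The libraries of Ets1 and Zeb1 overlapped in TPM, as did those of Zeb1 and Zeb2. Snai2 (1.90 ± 0.176), Sox9 (1.83 ± 0.173), Snai1 (1.63 ± 0.397) and Twist1 (1.37 ± 0.274 TPM) formed a low group whose neighbours in this order overlapped, and Sox5 (0.540 ± 0.415 TPM) was lowest. Without Activin A, Ets1 at 22.7 ± 1.05 TPM was above Lmo4 at 12.3 ± 0.902 TPM in every library, and Zeb2 at 11.5 ± 3.92 TPM was above Zeb1 at 7.36 ± 0.532 TPM. Snai2 (3.64 ± 0.214) and Sox9 (3.33 ± 0.356 TPM) stood above Snai1 (2.26 ± 0.174) and Twist1 (1.48 ± 0.042 TPM) there, without overlap. The sums per gene count retained-intron transcripts, among them Lmo4-206 at 3.55 to 4.82 TPM and Vim-203 at 209 to 217 TPM with Activin A. The order of Lmo4 and Ets1 was not computed without such transcripts.

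Paralogues and partners of the 10 genes changed in both directions. Of 16 tested out of 19, 5 rose and 3 fell, against 14.0% and 15.2% of all tested genes. A further 8 did not pass, and the median log2 fold was 0.096. The other SOXD genes rose: Sox13 from 26.9 ± 2.55 to 48.6 ± 0.744 CPM (edgeR adjusted p = 4.97e-07) and Sox6 from 2.04 ± 0.730 to 4.87 ± 0.688 CPM (edgeR adjusted p = 0.000808). The SNAI paralogue Snai3 fell by 1.88 on the log2 scale, from 5.41 ± 0.700 to 1.46 ± 0.276 CPM (edgeR adjusted p = 4.55e-06). In the LIM-only family Lmo1 rose by 1.40 and Lmo2 fell by 0.76 on the log2 scale, and Ldb2, which encodes a LIM-binding adaptor, fell by 1.08 on that scale. Ets2, the nearest paralogue of Ets1, had 26.2 ± 1.01 and 27.1 ± 0.830 CPM, with no call (edgeR adjusted p = 0.643). The number of Ets1 reads per Ets2 read was 1.78 to 2.02 with Activin A and 4.38 to 4.73 without (exact two-sided permutation p = 0.10, the smallest possible).

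Epithelial genes that ZEB and SNAI factors are known to repress were mostly lower without Activin A. Of 19 tested out of 20, 14 fell, 2 rose and 3 did not pass, against 15.2% of all tested genes called lower, and the median log2 fold was -0.629. This list too was chosen with earlier results of these data known. The epiblast stem cell markers, of which 10 of 14 fell, had a median of -0.598, and Cdh1 and Epcam belong to both lists. Cdh1, the E-cadherin gene, had 139 to 140 CPM in the libraries with Activin A and 94.0 to 95.9 CPM in those without, and fell by 0.56 on the log2 scale (edgeR adjusted p = 6.33e-07). Esrp1, a splicing factor of epithelial cells, fell from 34.0 ± 0.586 to 17.0 ± 0.844 CPM (edgeR adjusted p = 9.08e-08). Epcam and the tight junction gene Cldn6 fell by 1.08 and 1.03. The rises were those of the keratin gene Krt8, from 65.3 ± 7.22 to 117 ± 3.57 CPM (edgeR adjusted p = 4.59e-07), and of the desmosome gene Dsp, by 0.32 on the log2 scale. The list also holds the genes of Grhl2 and Ovol2, epithelial factors that oppose the ZEB genes, at log2 folds of -0.53 and -1.54, both called lower. Ovol2 had 5 to 13 reads a library without Activin A and passed the low-count filter through the libraries with it.

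Genes of the mesenchymal side of EMT did not move together. Of 15 tested out of 16, which include Vim, 6 rose and 5 fell, against 14.0% and 15.2% of all tested genes. The other 4 did not pass, and the median log2 fold was -0.139. Cdh2, the N-cadherin gene, rose from 40.6 ± 3.69 to 76.7 ± 0.994 CPM (edgeR adjusted p = 7.59e-08), and the integrin gene Itgb3 and the matrix gene Sparc rose by 0.83 and 0.26 on the log2 scale. The collagen cross-linking enzyme gene Lox and the protease gene Mmp2 fell by 1.07 and 0.26. With Activin A replicate 1 left out, 3 genes fell, and with limma-trend on TPM 1 did.

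Of 15 tested neural crest markers out of 16, 7 fell, 2 rose (Ednrb and Msx2) and 6 did not pass, with a median log2 fold of -0.371. Of all tested genes 15.2% were called lower and 14.0% higher. With DESeq2, 6 of the crest markers fell and 1 rose. Foxd3, Tfap2b and Pax7, all called lower, had 7 to 10, 1 to 5 and 4 to 10 reads without Activin A. They passed the low-count filter through the libraries with Activin A. Msx2, at 4 to 10 reads with Activin A, passed it through those without. These calls were thus favoured by the filter. The summed level of the 16 markers was 136 to 155 CPM with and 61.1 to 66.0 CPM without Activin A. That sum rests mostly on Crabp1 (means of 53.65 and 15.27 CPM), Ngfr (36.58 and 4.645 CPM) and Erbb3 (35.49 and 22.21 CPM). No other marker averaged over 7.04 CPM in either group, so the sum does not describe the list as a whole. A wider list of other neural crest and plate border genes, which shares Foxd3, Crabp1, Ngfr and further genes with these markers, had 7 rises and 7 falls among 25 tested out of 28 and a median log2 fold of 0.065. With limma-trend on TPM 4 genes of the wider list rose and 4 fell. In the wider list the rises with the smallest p-values were those of Cdh6, Id3 and Gbx2, at log2 folds of 3.72, 2.16 and 2.44. The falls with the smallest were those of the retinoid-binding protein gene Crabp1 (-1.82), the neurotrophin receptor gene Ngfr (-2.99) and Erbb3 (-0.68). Foxd3, an early crest factor that pluripotent cells also express, fell by 2.42 on the log2 scale (edgeR adjusted p = 4.86e-06). Sox10, the factor of migrating crest, did not pass (edgeR adjusted p = 0.353). Of the cartilage genes that SOX9, SOX5 and SOX6 activate, 7 of 11 were tested and 2 rose, Matn1 and Col11a1, at log2 folds of 0.87 and 0.39. No gene of that list was called lower, 0 of them also at an unadjusted p of 0.05 and with DESeq2. The rises numbered 4 with the replicate block, and 5 without a low-count filter or after removal of the GC and length trend, and 1 with limma-trend on TPM.

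**Figure D4:**
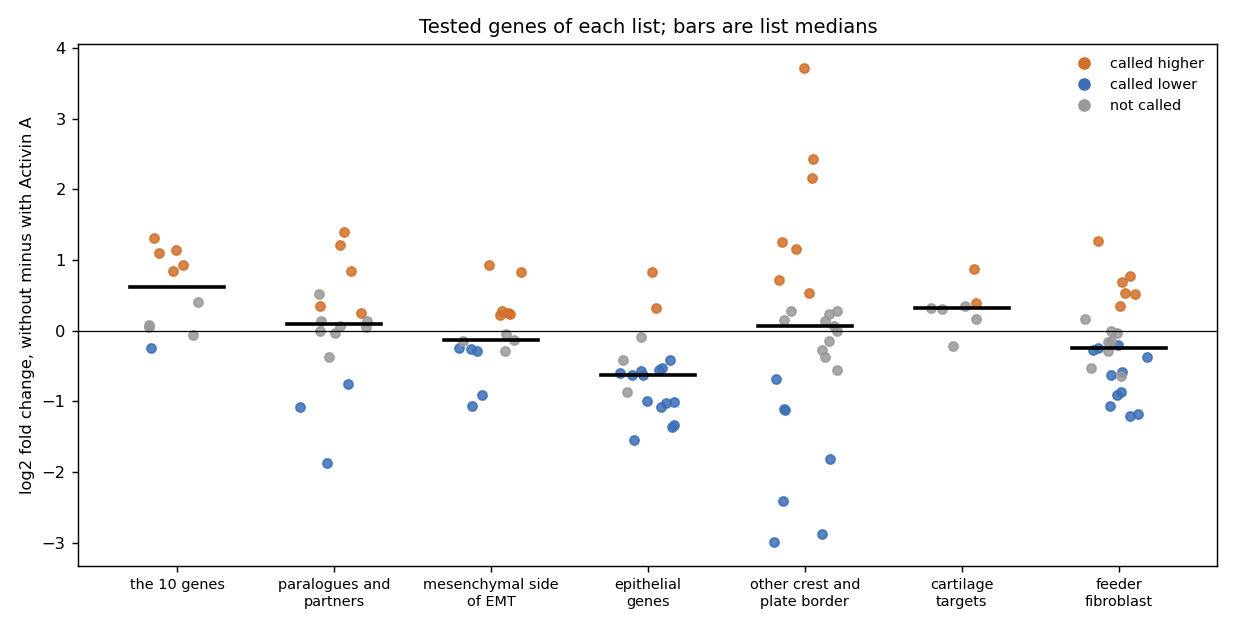
Log2 fold change (y axis, without minus with Activin A) of every tested gene in 7 lists; each point is a gene, colour gives the edgeR call and the black bar is the list median. The median is 0.624 for the 10 genes and -0.629 for the epithelial genes, while the feeder markers spread to either side of 0.

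The cultures contained feeder fibroblasts, which are known to express Vim, Zeb1, Zeb2, Snai2 and Twist1, and in such bulk libraries fewer cells of a type and less RNA per cell cannot be told apart. Of 26 feeder markers 25 were tested, of which 6 rose and 11 fell, against 14.0% and 15.2% of all tested genes. The other 8 did not pass, and the median log2 fold was -0.247. The summed level of the 26 markers was higher without Activin A, at 2176 to 2204 CPM against 1569 to 1699 CPM, and 1159 to 1186 TPM against 794 to 914 TPM. That sum is weighted to the most abundant markers, all called higher. Tagln averaged 313 CPM with and 449 CPM without Activin A, Col1a1 234 and 341 CPM, and Acta2 168 and 407 CPM. It does not describe the list as a whole, in which 11 markers fell. The contractile gene Acta2 and the collagen genes Col1a2 and Col5a2 rose by 1.28, 0.78 and 0.70 on the log2 scale. The collagen gene Col3a1, the proteoglycan gene Bgn and Lox fell by 1.21, 0.63 and 1.07, and Pdgfra, Prrx1 and Twist2 did not pass, with log2 folds of -0.01, -0.28 and -0.03. With limma-trend on TPM 4 feeder markers fell. No marker of the list was at 0 in all libraries.

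Set against these markers, the 5 genes that rose gave different answers with different denominators. The summed feeder list is weighted to Tagln, Col1a1 and Acta2, which rose themselves. Per read of that sum, Ets1 was 1.85-fold, Sox5 1.66-fold, Zeb2 1.61-fold, Snai2 1.43-fold and Sox9 1.35-fold higher without Activin A. Per read of Col6a1, a marker that fell, the ratios were 2.13 to 2.93-fold higher, and the exact two-sided permutation p was 0.10 for each of these 10 ratios, the smallest possible. Per read of Col1a2, which rose itself, Ets1 was 1.44-fold and Zeb2 1.25-fold higher (p = 0.10 each, exact permutation). On that denominator Snai2 was 1.11-fold (exact permutation p = 0.20), Sox9 1.05-fold (p = 0.50) and Sox5 1.29-fold (p = 0.60), and their libraries overlapped between the groups. In all, 18 such ratios of 2 genes or lists were computed, and after adjustment over them none can fall under 0.10. The part of the feeder cells in the changes of the 10 genes was not tested.

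**Figure D5:**
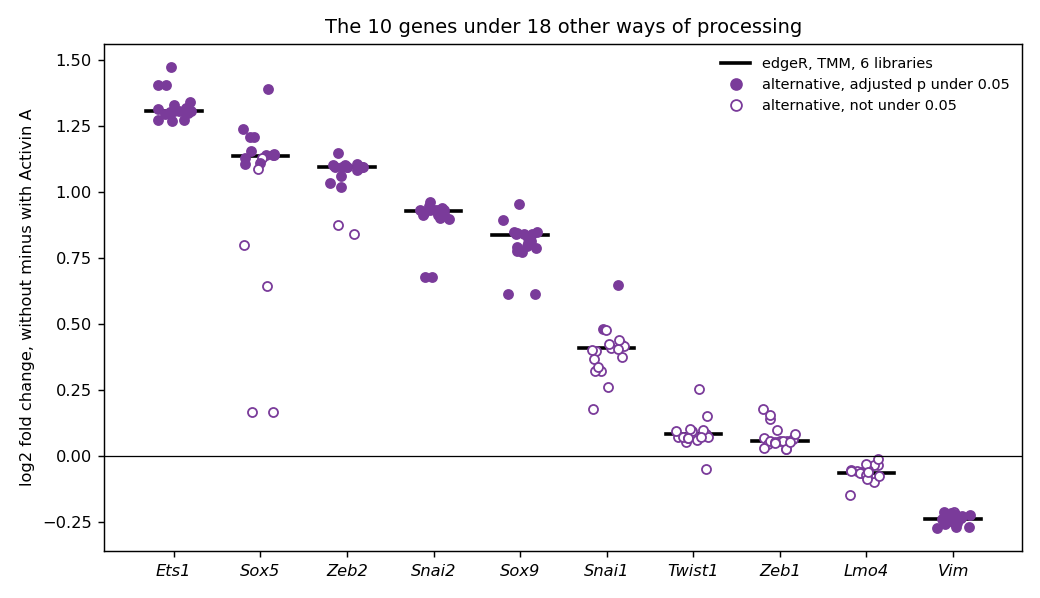
Log2 fold change (y axis) of the 10 genes in edgeR with all 6 libraries (black bars) and in 18 alternatives (points; filled where the adjusted p is under 0.05). Ets1, Snai2 and Sox9 are filled throughout, and Zeb1, Twist1 and Lmo4 stay near 0 with open points only. Zeb2 is open with limma-trend on TPM of all transcripts and with the length offset. Sox5 is open with both limma-trend settings, the length offset and DESeq2. It is also open without the library with Activin A replicate 1 or without Activin A replicate 2.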

How the data were processed

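Polyadenylated RNA of 6 libraries was measured. The deposited files hold an estimated count and TPM, per the file headers, for each of 133618 transcripts, in the columns that salmon writes, with transcript lengths and effective lengths. Salmon, DESeq2 and edgeR appear, with no version, per the submitters' processing notes. No build, annotation or strand setting was found: each is not given in the sources used here. Transcripts were matched without version to GENCODE M21 on GRCm38. The 219 unmatched ones held 0.140% ± 0.0066 of reads (SD, n = 6) and were left out.

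Estimated counts were summed per gene, rounded, filtered with filterByExpr (minimum count 10, minimum total 15), scaled by TMM and tested with edgeR 4.0.16 (R 4.3.3), robust quasi-likelihood F test, without minus with Activin A. P-values were adjusted by Benjamini-Hochberg over all tested genes. The standard error is the log2 fold divided by the square root of F. Alternatives used limma 3.58.1, DESeq2 1.42.0 and mgcv 1.9.3. The fold of limma on log2(TPM + 1) understates changes of low genes.

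All 10 genes are named, and from each list up to 3 called genes a direction with the smallest p-values. Transcripts with at least 10% of a gene's summed TPM are named. Genes of a list named beyond these (Cdh1, Grhl2, Ovol2, Foxd3, Tfap2b, Pax7, Sox7, Sox17, Foxa2, T, Mixl1, Pecam1, Cdh5, Pou5f1, Sox10, Ets2, Col6a1, Tagln, Col1a1, Pdgfra, Prrx1, Twist2, Zeb2os) were chosen after their values were seen. The genes and lists were chosen with earlier results of these data known.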

Additional observations from a re-analysis of the deposited data

How the results depend on the processing

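Of 180 values of the 10 genes under 18 alternatives, 168 kept their direction and side of the threshold, 9 lost the call, 2 gained it and 1 reversed. The lost calls were those of Sox5, Zeb2 and Vim, and the gained ones those of Snai1. Twist1 ranged from -0.05 to 0.25 on the log2 scale on leaving out single libraries and was never called. The count of called genes, 4505 in all (2155 higher, 2350 lower), was 1559 (778 and 781) with limma-trend on log2(TPM + 1), 1739 (862 and 877) with that test on transcripts of at least 300 bases, a setting chosen after seeing the data, and 2050 (937 and 1113) with the transcript length offset. The cause was not tested. It ran from 3246 to 5689 on leaving out single libraries. Of the 10 genes, 3 were called higher with limma-trend on all transcripts and 3 with the length offset, and 0 lower with that limma-trend (1 at an unadjusted p under 0.05, and 1 lower with DESeq2). Leaving out single libraries gave 4 to 5 rises and 1 fall.

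Shares of single transcripts depend on the unit, because TPM divides by effective length. In estimated reads in place of TPM, the mean share over 6 libraries was 41.97% in place of 12.96% for Zeb2-201, 0.84% in place of 49.09% for Zeb2-227, 96.06% in place of 73.96% for Ets1-201 and 2.74% in place of 22.98% for Ets1-205. For Lmo4-201 it was 28.82% against 20.27%, for Lmo4-206 it was 18.62% against 32.71%, for Vim-201 it was 51.59% against 23.34%, for Vim-206 it was 26.62% against 15.28% and for Vim-203 it was 18.47% against 56.69%. Transcripts under 300 bases held 32.4% to 37.0% of each library's TPM.

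Libraries with the same replicate number did not deviate together (correlations of -0.025, -0.052 and -0.057). No pairing by number was seen, but correlations over 3 libraries a group cannot exclude a shared culture or preparation. With the replicate number as a block 4422 genes were called (2125 higher, 2297 lower), and of the 10 genes 5 rose and 1 fell. Of 432 counts of list members under the alternatives, 376 stayed within 1.5 times. Sox5, Twist1 and Snai1 rest on 8 to 77 reads a library, with standard errors of 0.31, 0.18 and 0.18 on the log2 scale.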

Other observations

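Ets1 also acts in vessels and blood, and a list of markers of those cells was measured beside it. Of 8 such genes 6 were tested and 3 rose without Activin A, against 14.0% of all tested genes. None was lower (0 also at an unadjusted p of 0.05 in edgeR, and 0 with DESeq2). Kdr, the VEGF receptor gene, had 1.62 ± 0.336 CPM with and 7.31 ± 0.415 CPM without Activin A (SD, n = 3 each, edgeR adjusted p = 2.41e-07). The blood and vessel factor gene Tal1 went from 1.34 ± 0.453 to 3.05 ± 0.0650 CPM (edgeR adjusted p = 0.00188), and the receptor gene Tek rose by 0.66 on the log2 scale. Pecam1, a defining marker of endothelium, had 1.13 ± 0.106 and 1.32 ± 0.292 CPM, with no call (edgeR adjusted p = 0.590). Cdh5, another, had 0 to 13 reads and was left out by the filter on low counts. Of 12 neural progenitor markers 8 were tested, with 2 called higher and 3 lower. Of 13 mesoderm markers 6 were tested, with 1 called higher and 3 lower. Of 10 endoderm markers 4 were tested and all 4 rose in edgeR (Dab2, Hhex, Cxcr4 and Sox7), against 14.0% of all tested genes. DESeq2 called 1 of them higher, and 0 were lower with either tool, also at an unadjusted p of 0.05 in edgeR. Sox7, at 3 to 8 reads with Activin A, passed the low-count filter through the libraries without it, so its call was favoured by the filter. The defining markers Sox17 and Foxa2 had 0 to 7 and 0 to 2 reads and were not tested.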
